A study of Mus musculus with 10 samples.

Results

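The PGC-1 coactivators and the regulators of mitochondrial biogenesis that work with them were followed in mouse hearts labelled as Larp7 knockouts. LARP7 is an RNA-binding protein known for stabilizing the 7SK noncoding RNA. The set holds 10 genes chosen by symbol: the coactivators Ppargc1a, Ppargc1b and Pprc1, the muscle regulator Perm1, the estrogen-related receptors Esrra, Esrrb and Esrrg, and the factors Nrf1, Tfam and Ppara. Of these, 8 are listed at E15.5 among 15498 genes, and 10 in the adult among 15987. Pprc1 and Esrra are listed in the adult only. All members listed passed the filter on low values.

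All mice were C57BL/6. Whole embryonic hearts (E15.5) came from 3 samples of genotype Larp7+/+ and 3 of genotype Larp7-/-, the conventional knockout. At 4 months of age apex tissue was taken from 2 samples of Larp7f/f mice, the controls with floxed alleles, and 2 of Myh6Cre;Larp7f/f mice, in which Cre is driven by the Myh6 promoter, active in cardiomyocytes. Adult controls carry the floxed alleles but no Cre, so an effect of Cre and of the deletion cannot be told apart, and apex RNA also comes from cells that do not express the Cre. Nothing in the sources used here says that the samples of a group are separate animals, so the spread between samples may be technical. A p-value here rests on that spread, on a variance pooled over genes and on a variance of rounding, not on a known spread between animals. Each value is a per-million value that the authors rounded to a whole number. Sequencing depth is unknown, and the sources used here do not say whether values are scaled to transcript length, so levels were not compared between genes.

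PGC-1 coactivators bind no DNA themselves. They dock on nuclear receptors such as PPAR alpha and the estrogen-related receptors (ERRs), and on NRF1, and raise transcription of genes for fatty acid oxidation and the respiratory chain. NRF1 and GABPA drive TFAM, which packages mitochondrial DNA and takes part in its transcription. In heart this network is known for rising around birth, when the muscle turns to fatty acids as fuel, and PERM1 is induced by PGC-1 and ERRs in muscle.

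Stretches upstream of a RefSeq start are shown for 4 members because each holds a match to a motif of the network. Perm1 is the member on which the adult result turns, and its stretch ends just before its GENCODE gene start. By GENCODE positions the stretches of Ppara, Tfam and Esrrg lie inside the gene. RefSeq promoter windows (build mm10, 250 bases before to 50 after a start) were found for 9 of the 10 members, 14 windows in all. All sequences run 5′ to 3′ on the strand of the gene, with the match in capitals.
Perm1, chr4:156215677-156215867, plus strand: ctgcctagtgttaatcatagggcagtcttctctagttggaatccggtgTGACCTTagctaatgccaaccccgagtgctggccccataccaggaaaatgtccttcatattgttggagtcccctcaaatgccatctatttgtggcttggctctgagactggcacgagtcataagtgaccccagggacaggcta
Ppara, chr15:85735735-85735764, plus strand: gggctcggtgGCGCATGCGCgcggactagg
Tfam, chr10:71238073-71238102, minus strand: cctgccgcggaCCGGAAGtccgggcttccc
Esrrg, chr1:187608974-187609003, plus strand: taaaactttgCTATTTATAGtctacgcccg
Both strands were searched. The short ERR element AAGGTCA lies on the opposite strand in Perm1, and 4.72% of all 32851 promoter windows of the same length hold it. The longer form TNAAGGTCA, which contains the short one, is held by 1.28% of all windows and by 0 of the 14 member windows. The core motif of NRF1 (4.6% of all windows) was found in Ppara, the GABPA motif CCGGAAG (8.86%) in Tfam and that of MEF2, a muscle transcription factor, in Esrrg (3.69%). The short ERR element was added to the search after the Perm1 sequence had been seen. These are matches of letters, not measured binding.

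Adding a gene's control value to its knockout value gives nearly the same sum (within 2) for every replicate number. This held in 8328 of 8366 embryonic and 8640 of 8656 adult genes whose mean reached 10, and for every member. Same-numbered samples therefore deviate in opposite directions, and both groups of a gene have nearly equal SDs that are not independent estimates. The fit takes the replicate number as a block for that reason. Larp7 (chromosome 3, 127536714 to 127553349, minus strand, mm10) had 96, 88 and 103 in the wild type and 45, 54 and 40 in the knockout at E15.5, a log2 change of -1.04 (SE 0.17, limma adjusted p = 0.00163). At a ratio of 0.487, its RNA was lower in the embryonic knockout but not absent. In the adult Larp7 had 26 and 28 in the controls and 26 and 24 in the knockout (log2 change -0.11, SE 0.17, limma adjusted p = 0.934), so its RNA does not check the adult genotype labels. The median gene changed by 0.11 (log2) in embryos and by 0.08 in adults. Log2 changes here are on log2(value + 1) and compare knockout with control.

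At E15.5 the comparison asks whether the regulators differ between Larp7-/- and Larp7+/+ embryonic hearts. No member passed the test: 0 of 8 were called by limma at an adjusted p under 0.05, and 0 had an unadjusted p under 0.05. Of the 13609 tested genes 0.573% were called, 0.478% being called higher, and 13.9% had an unadjusted p under 0.05. The knockout means of Ppargc1b, Ppargc1a and Esrrg lay above those of the wild type, whereas Perm1, Nrf1, Tfam and Ppara lay close to them. Of the 8 members 6 had a positive log2 change, as did 60.4% of all tested genes. The members' median was 0.10, beside 0.11 for all genes. The SEs at E15.5 are largely pooled over genes. The pooled variance carried 27.3 degrees of freedom (median over genes, 3.44 for Ppargc1b), against 2 residual ones of each gene.

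**Figure D1:**
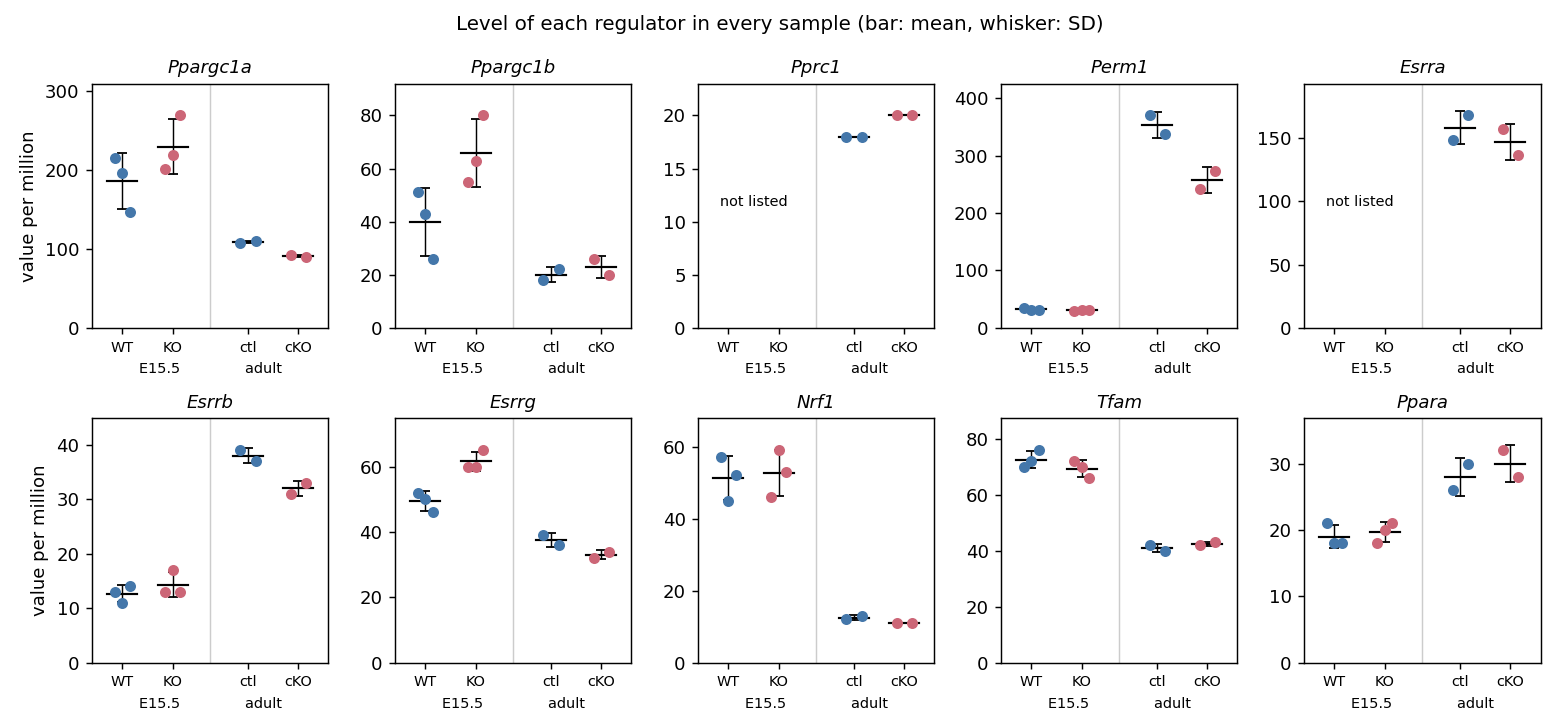
Level of each of the 10 regulators in every sample (per-million values, linear axis from 0), with E15.5 wild type (WT) and Larp7-/- (KO) on the left and adult controls (ctl) and Myh6Cre;Larp7f/f (cKO) on the right of each panel. Blue points are controls and red points knockouts, bars are means and whiskers SDs; in Perm1 both adult knockout samples (242 and 274) lie below both controls (370 and 338).

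Ppargc1b, which encodes the coactivator PGC-1 beta, stood at 51, 43 and 26 in wild-type embryos against 55, 63 and 80 in knockout embryos. Every knockout value exceeded every wild-type value, and the spread within each group was wide. Its means were 40 ± 12.8 and 66 ± 12.8 (SD, n = 3), a log2 change of 0.74 (SE 0.30, 95% interval -0.0015 to 1.49, limma adjusted p = 0.36). Its size differed between replicate numbers, with knockout over control at 1.08 for number 1, 1.47 for number 2 and 3.08 for number 3. Without either number 3 sample the log2 change was 0.32. Without either number 1 or number 2 sample the gene was called (limma adjusted p between 0.00659 and 0.0073). Under the block a value without its counterpart adds nothing to the change, so each of these fits rests on the remaining numbers alone. Their log2 changes were 0.54 and 1.58 without number 1, and 0.11 and 1.58 without number 2. These calls therefore lean on the variance pooled over genes, not on a narrow spread of Ppargc1b itself. With no filter on low values Ppargc1b was called as well (limma adjusted p = 0.00214). For Ppargc1b the authors' deposited table lists 0.66 (log2), with an unadjusted p of 0.0464.

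Ppargc1a encodes PGC-1 alpha, the best known member of the family. It had 215, 196 and 147 in the wild type and 201, 219 and 269 in the knockout. The groups overlapped, since number 1 of the knockout lay below number 1 of the wild type. The means were 186 ± 35.1 and 229.7 ± 35.2 (SD, n = 3), a log2 change of 0.31 (SE 0.18, 95% interval -0.07 to 0.69, limma adjusted p = 0.476). Number 3 carried this difference as well, at 147 against 269, and the log2 change without either number 3 sample was 0.03. Markers of other cell types stood apart in the same libraries. The erythroid markers summed to 7762, 7755 and 3159 in the wild type and to 4871, 4880 and 9774 in the knockout, and the fibroblast markers to 4818, 4898 and 4028 and to 4975, 4899 and 5766. Number 3 was thus lowest in the wild type and highest in the knockout for both lists, as for Ppargc1a and Ppargc1b. Same-numbered values add to nearly the same sum, so these 2 sides of the pattern are 1 observation. Epicardial, macrophage, and smooth muscle and pericyte markers had number 3 in the same places. Cardiomyocyte markers ran opposite (23586, 25652 and 27475 against 22185, 20122 and 18299), and endothelial markers were lowest in number 2 of the wild type. The part of these shifts in the differences of Ppargc1a and Ppargc1b was not tested. By Pearson correlation over the 6 samples, on log2 values, the genes nearest to Ppargc1a among 8362 genes with a mean of at least 10 were Furin (r = 0.9995), Bcor (0.9991) and Trim25 (0.9988). Ppargc1b followed at 0.97 (rank 223) and Esrrg at 0.85 (rank 1086), whereas Tfam ran opposite at -0.99. The fixed totals leave few independent values behind such a correlation, so it is a description of these 6 libraries only.

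Esrrg encodes ERR gamma, a receptor through which PGC-1 acts on oxidative genes in the heart. It stood at 52, 50 and 46 in wild-type embryos against 60, 60 and 65 in knockout embryos, without overlap, and the knockout was higher in all 3 numbers. The log2 change was 0.32 (SE 0.16, 95% interval -0.01 to 0.65, limma adjusted p = 0.382). Ppargc1b and Esrrg were thus the 2 of 8 members whose knockout values all lay above the wild type, as did 19.3% of all tested genes and 25.2% of those with a mean of at least 10. In 0 of 8 did all knockout values lie below, as in 8.75% of all tested genes. Esrrg overlaps the antisense gene Gm36388 by 34973 bases. Esrrb, encoding the related ERR beta, had 13, 11 and 14 against 13, 17 and 13, with overlap (log2 change 0.16, SE 0.23, limma adjusted p = 0.787).

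Perm1, named for its induction by PGC-1 and ERRs, stood at 34, 31 and 32 in the wild type and 30, 32 and 31 in the knockout. Its log2 change was -0.06 (95% interval -0.42 to 0.30). Nrf1, a DNA-binding activator of respiratory genes, had 57, 45 and 52 against 46, 59 and 53 (log2 change 0.04, 95% interval -0.31 to 0.38). Tfam had 70, 72 and 76 against 72, 70 and 66 (log2 change -0.07, 95% interval -0.39 to 0.26). Ppara, the receptor that switches on fatty acid oxidation, had 21, 18 and 18 against 18, 20 and 21 (log2 change 0.05, 95% interval -0.37 to 0.46). In these 4 genes the groups overlapped, and the limma adjusted p lay between 0.885 and 0.967. Those p-values do not show that the genotypes are alike, and the intervals give the sizes still allowed. Under median-of-ratios scaling the log2 changes of Nrf1 and Ppara turned to -0.0274 and -0.013.

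**Figure D2:**
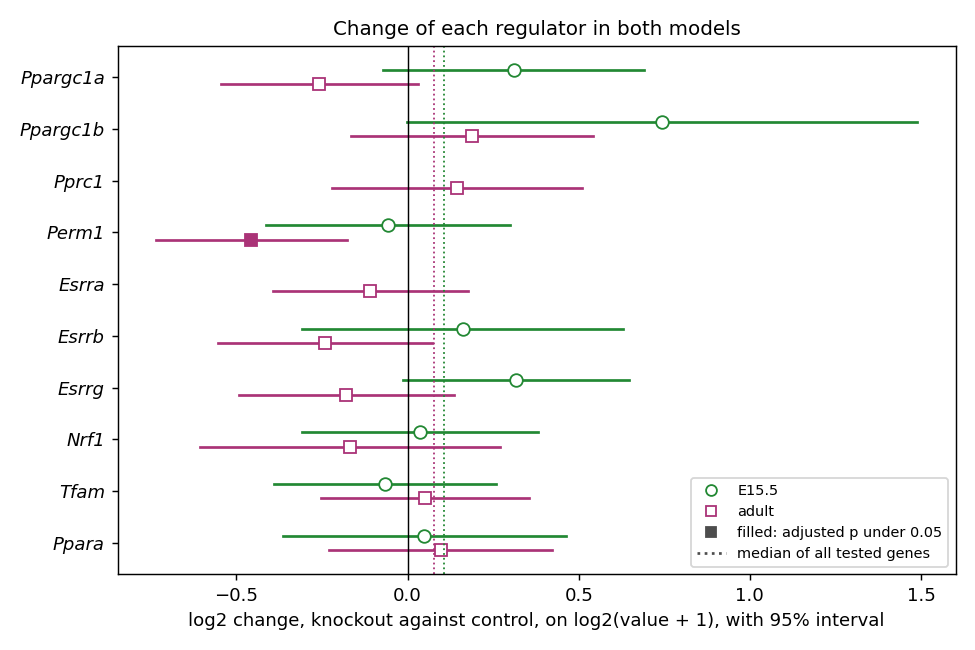
Log2 change of each regulator, knockout against control, with its 95% interval, at E15.5 (green circles) and in the adult (purple squares); dotted lines mark the median of all tested genes in each model. Perm1 in the adult (-0.46) is the filled symbol, the single member called, and the widest interval belongs to Ppargc1b at E15.5.

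The adult comparison asks the same of hearts in which the Myh6Cre transgene acts on floxed Larp7. Perm1 fell, and it was the 1 of 10 members called by limma, where 0.944% of the 14833 tested genes were called lower, 2.3% higher and 3.24% in either direction. Ppargc1a, Esrrb, Esrrg and Nrf1 also had both knockout values below both control values, though none of them passed the test. With Perm1 that makes 5 of 10 members with lower values and no overlap, as seen in 12.8% of all tested genes and in 17.6% of those with a mean of at least 10. The members' median log2 change was -0.14, against 0.08 for all genes. With 2 samples a group an exact two-sided permutation test cannot go below p = 0.333, and each gene has 1 residual degree of freedom. For the adult members the SE therefore comes from genes of like level and not from the member's own spread.

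Perm1 (chromosome 4, 156215868 to 156221307, plus strand, mm10) stood at 370 and 338 in controls against 242 and 274 in knockout samples. The lowest control exceeded the highest knockout by more than the samples of either group differed. The means were 354 ± 22.6 and 258 ± 22.6 (SD, n = 2), a ratio of 0.729 and a log2 change of -0.46 (SE 0.14, 95% interval -0.74 to -0.18, limma adjusted p = 0.0458). Block, rounding variance, filter and prior do not enter the log2 change, and leaving out 1 sample cannot reverse groups without overlap. The direction was the same under all 13 other settings tried, most of which could thus not have turned it. The call was lost in 5 of them: without number 1 of the knockout (with no replicate block, limma adjusted p = 0.0572), with no filter on low values (0.0509), with no rounding variance (0.606, or 0.184 with no replicate block either) and with a prior that has neither trend nor robust option (0.805). The authors' deposited table gives Perm1 a log2 change of -0.52 and an unadjusted p of 0.00984.

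Ppargc1a had 108 and 110 in the controls and 92 and 90 in the knockout. The groups lay further apart than the samples within each. Its log2 change was -0.26 (SE 0.15, 95% interval -0.55 to 0.03, limma adjusted p = 0.502), and it was called without block and rounding variance (limma adjusted p = 0.0331). Ppargc1b had 18 and 22 against 26 and 20, overlapping, with a log2 change of 0.19 (SE 0.18). Pprc1, the PGC-1-related coactivator known for its response to growth signals, had 18 in both controls and 20 in both knockout samples. A difference of 2 on values rounded to whole numbers gave Pprc1 a log2 change of 0.14 (SE 0.19, limma adjusted p = 0.904), and it was called only in the 2 fits with no rounding variance (limma adjusted p = 0.0332, or 0.00026 with no replicate block). Pprc1 was the 1 of 10 members with higher values and no overlap, against 29.3% of all tested genes.

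The estrogen-related receptors had lower knockout means in the adult. Esrrb had 39 and 37 against 31 and 33 (log2 change -0.24, SE 0.16, limma adjusted p = 0.623) and Esrrg 39 and 36 against 32 and 34 (log2 change -0.18, SE 0.16, limma adjusted p = 0.799). Esrra, encoding ERR alpha, which PGC-1 alpha induces, had 149 and 168 against 157 and 137, with overlap (log2 change -0.11, SE 0.15). None of the 3 receptors passed the test, and their 95% intervals reached down to -0.56 for Esrrb, -0.49 for Esrrg and -0.39 for Esrra. Esrra overlaps Trmt112, a gene on the opposite strand, by 73 bases, and Pprc1 overlaps Ldb1 by 329 bases on the opposite strand. The sources used here do not say whether counting used strand, so reads in those stretches may belong to either gene.

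Nrf1 stood at 12 and 13 in the controls and at 11 and 11 in the knockout (log2 change -0.17, SE 0.22, limma adjusted p = 0.904). Tfam stood at 42 and 40 against 42 and 43 (log2 change 0.05, 95% interval -0.25 to 0.36), and its sign turned under median-of-ratios scaling (-0.0103). Ppara stood at 26 and 30 against 32 and 28 (log2 change 0.10, 95% interval -0.23 to 0.42). The groups of Tfam and Ppara overlapped.

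**Figure D3:**
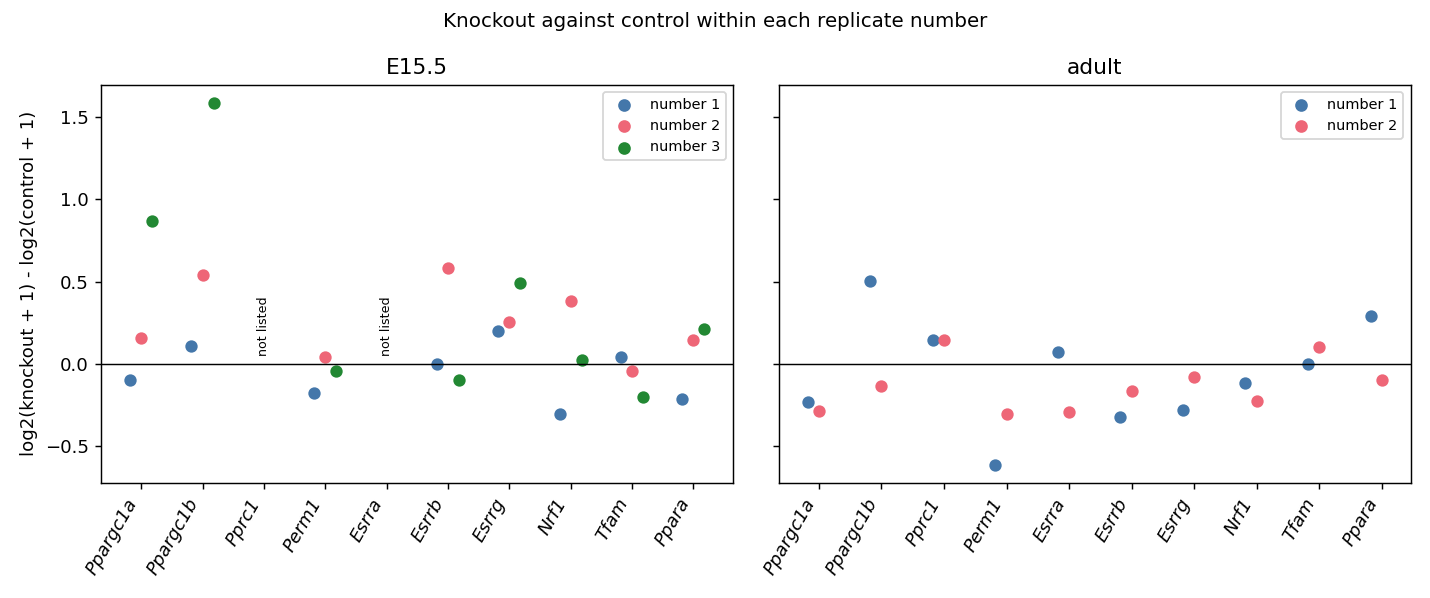
Knockout against control within each replicate number, as the difference of log2(value + 1), for the 10 regulators at E15.5 (left, numbers 1 to 3) and in the adult (right, numbers 1 and 2). At E15.5 number 3 lies far above the other numbers for Ppargc1b (1.58) and Ppargc1a (0.87), and in the adult Perm1 lies lowest in both numbers (-0.61 and -0.30).

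The change in the adult was set against that at E15.5 in a joint fit of both tables, in which each change is taken within its own table. Of 9768 genes listed and kept in both tables, 0 were called by limma (0%), and 0 of the 8 members. The difference was above 0 in 2 of 8 members and in 50.1% of these genes. Of the members, Esrrg alone had an unadjusted p under 0.05, as had 7.91% of these genes. Without the block 161 genes were called with a higher and 93 with a lower adult change, and without block and rounding variance 300 and 171. On leaving out 1 sample the counts were 0 to 53 and 0 to 32. Esrrg, higher in all 3 numbers at E15.5 and lower in both adult numbers, had a difference of -0.50 (SE 0.20, 95% interval -0.95 to -0.04, unadjusted p = 0.0356, limma adjusted p = 0.614). Ppargc1a had a difference of -0.57 (SE 0.28, limma adjusted p = 0.659) and Perm1 one of -0.40 (SE 0.20, limma adjusted p = 0.659). The fall of Perm1 in the adult was thus not shown to differ from its change at E15.5.

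Levels of the control groups at both ages are given side by side only, because the tables were scaled separately and the embryonic samples are whole hearts and the adult ones apex. Values are also shares of a sample's sum, in which the mitochondrially encoded genes differ. They held 59152 to 88749 in wild-type embryos and 212949 to 229964 in adult controls. The part of this in the orders below was not tested. Perm1 stood at 32.3 ± 1.53 (SD, n = 3) in the wild-type embryonic hearts and at 354 ± 22.6 (SD, n = 2) in the adult controls. Esrrb stood at 12.7 ± 1.53 and 38 ± 1.41, and Ppara at 19 ± 1.73 and 28 ± 2.83. For these 3 genes both adult groups lay above both embryonic ones. The order was opposite for Ppargc1a (186 ± 35.1 and 109 ± 1.41), Ppargc1b (40 ± 12.8 and 20 ± 2.83), Esrrg (49.3 ± 3.06 and 37.5 ± 2.12), Nrf1 (51.3 ± 6.03 and 12.5 ± 0.71) and Tfam (72.7 ± 3.06 and 41 ± 1.41). Within an age, the groups overlapped for Ppargc1a, Perm1, Esrrb, Nrf1, Tfam and Ppara in embryos and for Ppargc1b, Tfam and Ppara in adults. The highest adult value of Ppargc1b equalled its lowest embryonic one, 26.

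Targets of the regulators were examined next, in lists around the pathway. The PPAR alpha target list, genes of fatty acid uptake and oxidation, had 10 of 31 tested genes called lower in the adult knockout and 0 called higher (limma), with 22 of 31 changes negative and a median log2 change of -0.28. Over all tested adult genes 0.944% were called lower and 28.6% had a negative change. Ech1, an enzyme for unsaturated fatty acids, fell most, from 1211 and 1371 to 652 and 493 (log2 change -1.18, SE 0.14, limma adjusted p = 2.47e-14). Decr1, which acts on the same kind of substrate, fell from 387 and 416 to 269 and 240 (log2 change -0.66, SE 0.14). Cpt2, the inner-membrane carnitine transferase, fell from 242 and 230 to 154 and 165 (log2 change -0.56), and the trifunctional protein subunits fell as well, Hadha from 1471 and 1585 to 1114 and 1000 and Hadhb from 975 and 914 to 638 and 700. Cyp4b1 fell from 36 and 30 to 18 and 24. The other 4 called genes, outside the naming rule, were Lpl, Hadh, Slc27a1 and Acadm, with log2 changes between -0.49 and -0.43. Ucp2 had 148 and 66 against 197 and 278, without overlap, and was not called (log2 change 1.23, SE 0.80). The list had 2 genes called lower with no rounding variance, 4 with no replicate block either and 2 with neither trend nor robust prior, and 10 to 12 under the other settings.

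The PPAR alpha list held no call at E15.5 (0 of 25 by limma, 6 at an unadjusted p under 0.05, as had 13.9% of all embryonic genes), with a median of 0.08 and 15 of 25 changes positive. Slc27a1, a fatty acid transporter, had 22, 22 and 18 against 28, 27 and 32 (log2 change 0.47). Whether the list's change differed between the ages was not tested.

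ERR and PGC-1 target genes, mostly respiratory chain and citric acid cycle enzymes, had negative changes at both ages. In the adult 34 of 39 were negative, against 28.6% of all tested genes, with a median log2 change of -0.20. By limma 1 of the 39 was called, lower, where 0.944% of all tested genes were called lower. It was Cox7a1, the muscle form of a cytochrome oxidase subunit, which fell from 732 and 738 to 444 and 438 (log2 change -0.74, SE 0.14, limma adjusted p = 3.01e-05). Fndc5, a muscle gene known as a PGC-1 alpha target, had 512 and 526 against 397 and 383 (log2 change -0.41, limma adjusted p = 0.0868). The count of ERR targets called lower ranged from 0, with neither trend nor robust prior, to 8, without block and rounding variance. At E15.5, 21 of 27 were negative, against 33.1% of all tested genes, with a median of -0.17. By limma 0 were called, and 9 had an unadjusted p under 0.05, against 13.9% of all tested embryonic genes. The embryonic count called lower rose to 4 without the block, 5 without block and rounding variance, 2 without either number 2 sample and 1 with no filter. The ATP synthase subunit genes Atp5g3 (685, 762 and 822 against 578, 502 and 442) and Atp5g1 (641, 726 and 634 against 490, 405 and 497) had the largest embryonic changes, -0.58 and -0.53. Fndc5, picked here after its values were seen, was higher in all knockout embryos (44, 43 and 52 against 35, 35 and 27), with a log2 change of 0.51 (limma adjusted p = 0.175).

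**Figure D4:**
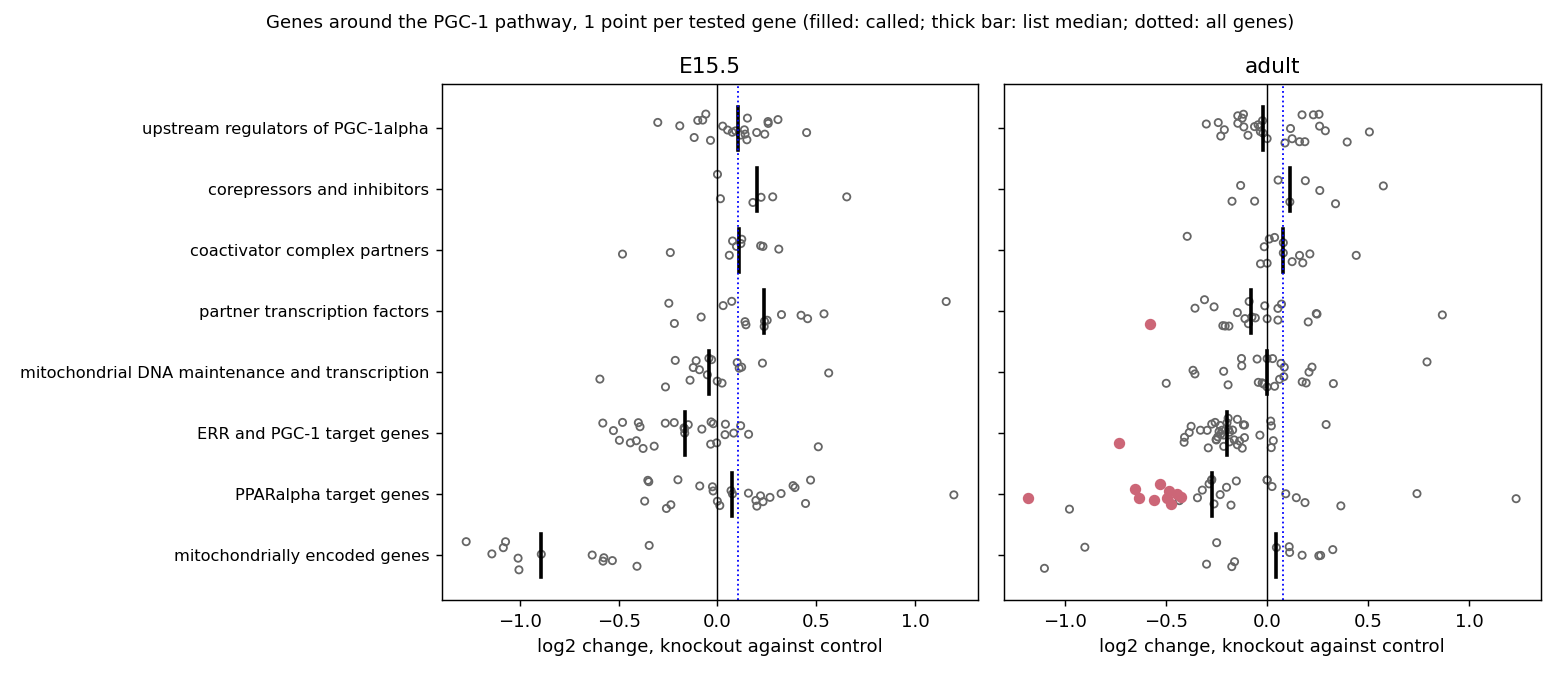
Log2 change of every tested gene in 8 lists around the PGC-1 pathway, 1 point per gene, at E15.5 (left) and in the adult (right). Filled red points are called genes, thick bars list medians and the dotted line the median of all tested genes; the called points are 10 PPAR alpha targets, Cox7a1 and Klf15, all in the adult and all lower.

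Among the transcription factors that share targets with PGC-1, Klf15, a regulator of heart lipid metabolism, was the 1 of 22 called in the adult. Of all tested adult genes 3.24% were called in either direction and 0.944% lower. It fell from 61 and 61 to 40 and 41 (log2 change -0.58, SE 0.15, limma adjusted p = 0.00752). Rxra, the binding partner of PPAR alpha on DNA, had 78 and 75 against 58 and 61 (log2 change -0.36, limma adjusted p = 0.225). At E15.5, 0 of 15 were called by limma and 2 had an unadjusted p under 0.05, against 13.9% of all tested genes. They were Foxo1 and Rxrg, the latter picked after its values were seen and at 4 or below in every sample. Foxo1 had 51, 52 and 45 against 66, 66 and 72 (log2 change 0.46, limma adjusted p = 0.189) and Foxo3 had 94, 93 and 55 against 102, 104 and 141 (log2 change 0.54, limma adjusted p = 0.407), both without overlap.

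Upstream regulators of PGC-1 alpha, such as subunits of the energy sensor AMPK, held 0 calls by limma among 22 embryonic and 29 adult genes (0 and 3 at an unadjusted p under 0.05, as had 13.9% of all embryonic and 12.2% of all adult genes). In the adult the AMPK genes Prkaa1 (18 and 18 against 26 and 26, log2 change 0.51, limma adjusted p = 0.104) and Prkab2 (47 and 49 against 64 and 63, log2 change 0.40) had the largest changes. Corepressors held 0 calls at either age by limma (1 of 6 embryonic and 0 of 9 adult genes at an unadjusted p under 0.05). Tle3 had 28, 31 and 18 against 38, 35 and 48 at E15.5 (log2 change 0.65, limma adjusted p = 0.192), and Mybbp1a, which binds PGC-1 alpha, had 111, 110 and 112 against 135, 136 and 134 (log2 change 0.28).

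Coactivator complex partners held 0 calls by limma among 10 embryonic and 13 adult genes (0 and 2 at an unadjusted p under 0.05, against 13.9% and 12.2% of all tested genes). Med1, the Mediator subunit that nuclear receptors contact, had 558, 429 and 400 against 239, 369 and 399 at E15.5 (log2 change -0.48, limma adjusted p = 0.364). In the adult Lpin1, a lipin that works with PGC-1 alpha and PPAR alpha, had 168 and 176 against 135 and 126 (log2 change -0.40, limma adjusted p = 0.129), and the chromatin remodelling subunit Smarcd3 had 27 and 36 against 48 and 38 (log2 change 0.44).

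Genes that maintain and transcribe mitochondrial DNA beside Tfam held 0 calls by limma among 17 embryonic and 25 adult genes, with medians of -0.04 and 0. At an unadjusted p under 0.05 were 2 and 3 of them, against 13.9% and 12.2% of all tested genes. Dguok, which makes DNA precursors inside mitochondria, had lower knockout values without overlap at both ages: 27, 28 and 28 against 19, 17 and 18 at E15.5 (log2 change -0.59, limma adjusted p = 0.148) and 21 and 26 against 20 and 16 in the adult (log2 change -0.37). Mterf4 of the same list went the other way at E15.5, also without overlap. It had 14, 14 and 15 against 21, 23 and 21 (log2 change 0.56, limma adjusted p = 0.207). The mitochondrially encoded genes themselves had 13 of 13 negative changes at E15.5, against 33.1% of all tested genes, with a median of -0.89. By limma 0 of them were called and 6 had an unadjusted p under 0.05, against 13.9% of all tested genes. The 13 genes summed to 59152, 88749 and 77382 in the wild type and to 64675, 35078 and 46444 in the knockout. These sums overlapped, and number 1 was higher in the knockout. In 8 of the 13 genes all knockout values lay below all wild-type values, as in 8.75% of all tested genes. In the adult 6 of 13 were negative, against 28.6% of all tested genes, with a median of 0.05.

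Markers of other cell types moved in some of the same samples. In the adult the summed level of 10 fibroblast markers was 1338 to 1662 in the controls and 2447 to 2771 in the knockout, and that of 10 macrophage markers 632 to 638 and 746 to 751. The 10 smooth muscle and pericyte markers summed to 3469 to 3590 and 4042 to 4162, though 6 of 10 changes were negative and Tagln was at 0 in a sample. Endothelial markers went the other way, at 1017 to 1041 and 947 to 971, with 9 of 10 changes negative, against 28.6% of all tested genes. The 8 epicardial markers summed to 24 to 68 and 81 to 125, with 3 called higher, as were 2.3% of all tested adult genes. Krt19 and Lrrn4 were at 0 in a sample. The 14 cardiomyocyte markers summed to 70565 to 72662 and 68362 to 70463, a median log2 change of 0.01, with Mybpc3 called higher and Myl7 at 0 in a sample. The adult erythroid markers summed to 129 to 1486 in the controls and 1273 to 2889 in the knockout, with 7 of 7 tested changes positive, a median of 1.57 and Epb42 at 0 in a sample. At E15.5 the 9 listed cardiomyocyte markers summed to 23586 to 27475 in the wild type and 18299 to 22185 in the knockout (7 of 9 negative), and the 7 fibroblast markers to 4028 to 4898 and 4899 to 5766. Called at E15.5 were Tnnc1 of cardiomyocytes, lower (limma adjusted p = 0.0452), Rgs5 of pericytes, lower (0.00704), and Pdgfra of fibroblasts, higher (0.0296). Of all tested embryonic genes 0.573% were called. The lists of the latter 2 genes were mixed. Of the fibroblast markers 4 changes were positive and 3 negative (median 0.12, beside 0.11 for all genes). Of the smooth muscle and pericyte markers 2 were positive and 3 negative. In bulk tissue fewer cells of a type and less RNA per cell cannot be told apart, and the part of these shifts in the results for the regulators and their targets was not tested.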

How the data were processed

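RNA from mouse heart was sequenced in 10 samples. The submitters' processing notes name HISAT2, HTSeq and mm10. The authors deposited a score for each gene and sample, a per-million value rounded to whole numbers, whose scaling the sources used here do not give. Sums per sample lie between 998498 and 1001508, so depth is unknown. Log2 fold changes and p-values of the authors stand beside them, per the file headers.

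Each table was fitted on its own with limma 3.58.1 (R 4.3.3), knockout against control, using log2(value + 1). A gene was kept if at least as many samples as a group holds reached 1; 1 adult symbol listed more than once was dropped. Replicate number entered as a block, since same-numbered samples deviate as mirror images: over genes, which are no replicates, the correlation was -0.82 to -0.80 for embryos and -0.81 for adults. That follows from the fixed totals, not from a pairing in the labels. The variance of rounding (0.0833) was added per gene, eBayes ran with trend and robust options, and Benjamini-Hochberg adjustment covered all tested genes at 0.05. The difference between ages came from 1 joint fit. Scripts were tested on simulated data. Members, lists and settings were chosen with earlier results of these data known. Named genes are the members, Larp7, the 3 genes nearest to Ppargc1a, and from each list up to 6 called genes and the 2 largest changes among genes with a mean of at least 10. For 1 of these genes the result is not reported here. Positions and overlaps follow GENCODE on mm10, and promoter windows RefSeq.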

Additional observations from a re-analysis of the deposited data

Results flagged for a closer look

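Esrrg was singled out because its knockout value was higher in every replicate number at E15.5 and lower in every number in the adult. The adult change minus the embryonic change was -0.50 (log2), and the test of that difference did not pass (unadjusted p = 0.0356, limma adjusted p = 0.614). It passed in a fit lacking both the block and the rounding variance (limma adjusted p = 0.0409). Of 9768 genes that fit called 300 with a higher and 171 with a lower adult change, where the main fit called 0. Groups of 2 and 3 samples were too small to look for a sample apart from its group.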

How the results depend on the processing

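Counts for target lists were added after the data were seen. The number of genes called at E15.5 was 78. It became 597 without the replicate block, 0 without rounding variance (1422 at an unadjusted p under 0.05 by limma), 1040 without either, 39 under median-of-ratios scaling, 597 with no filter, 0 for a mean of at least 10 (1099), 44 with a pseudocount of 0.5, 0 with neither trend nor robust prior (1126), and 213 to 503 when any 1 sample was left out. Median-of-ratios scaling gave 26 higher and 13 lower embryonic calls, beside 65 and 13, and 282 higher and 206 lower adult calls, beside 341 and 140. The 0 embryonic members called became 1 with no filter (Ppargc1b), 1 without block and rounding variance (Esrrg), and 0 to 1 on leaving out 1 sample. The 481 adult calls became 1130 without rounding variance, 1622 without the block as well, and 830, 1258, 603 and 924 on leaving out control 1, control 2, knockout 1 and knockout 2. Those fits lack the replicate block, as 3 samples leave it no residual degree of freedom. The 1 adult member called became 2 without block and rounding variance (Ppargc1a and Pprc1), 0 with no filter, 0 with neither trend nor robust prior, and 0 to 1 on leaving out 1 sample. Between ages, 0 members were called, and 1 (Esrrg) without block and rounding variance. Removing the replicate block alone changed no member's call (Perm1 adult log2 change -0.46, limma adjusted p = 0.0489).

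Signs turned under median-of-ratios scaling for Nrf1 (-0.0274) and Ppara (-0.013) in embryos and Tfam (-0.0103) in adults. On leaving out 1 sample the embryonic log2 change ran from -0.0498 to 0.29 for Esrrb, -0.14 to 0.21 for Nrf1 and -0.0336 to 0.18 for Ppara. Adult Ppara ran from -0.00301 to 0.20 and its difference between ages from -0.14 to 0.24, with -0.0813 without either embryonic number 1 sample. The cause of these shifts was not tested. Rounding to whole numbers limits genes with values near 10.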
